A study of Homo sapiens with 12 samples.

Results

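Replication-dependent histone mRNAs end in a stem-loop in place of a poly(A) tail, and a small set of dedicated proteins makes, trims and removes them. The 7 genes described here encode such proteins: SLBP, NPAT, CASP8AP2, LSM10, LSM11, ZNF473 and ERI1. They were chosen by symbol, as all probe sets whose platform annotation gave exactly that one symbol. This gave 7 of the 19775 genes and 15 of the 41097 probe sets that carried 1 symbol. The RNA came from HK-2, a human kidney cell line of proximal tubule origin that was immortalized. Cultures were exposed for 24 h or 72 h to Ota, at the dose labelled high, or to the control vehicle. Groups held 3 arrays each: Ota at 24 h, control at 24 h, Ota at 72 h and control at 72 h, 12 arrays in all. All groups shared a DMEM and Ham's F12 medium with EGF, hydrocortisone, insulin, transferrin and selenite, and were treated when nearly confluent. The labels give neither the compound's full name nor the amount, and HK-2 is a single line. Arrays within a group are titled as biological repeats, with no word on what was repeated. The p-values therefore cover no more than the variation among these 12 arrays.

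NPAT is a coactivator that sits at the histone gene clusters and is switched on by cyclin E with CDK2 as cells enter S phase. CASP8AP2, also called FLASH, is found in the same nuclear bodies and bridges to the processing machinery. SLBP binds the stem-loop and stays with the mRNA through processing, export and translation. ZNF473, a zinc finger protein also called ZFP100, links the SLBP-bound stem-loop to the U7 snRNP. LSM10 and LSM11 take the place of the spliceosomal proteins SmD1 and SmD2 in the ring around U7 RNA. ERI1 is an exonuclease that binds the stem-loop, trims the 3′ end and takes part in the decay of histone mRNA.

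The stretch of 150 bases just before the annotated gene start is given here for 4 of the 7 genes. NPAT, LSM10 and LSM11 were the lowest of the set with Ota at 24 h relative to controls, and CASP8AP2 had no called Ota effect at either time. Sequences run 5′ to 3′ on the gene's strand and are from RefSeq, build GRCh38.p14, which held promoters for 5 of the 7 genes. Capitals mark CCAAT on either strand (ATTGG as read here) and the E2F-type words TTTCGCGC, TTTGGCGC, TTTCCCGC and TTTGCCGC, searched on both strands.
NPAT, chr11:108222639-108222788, minus strand: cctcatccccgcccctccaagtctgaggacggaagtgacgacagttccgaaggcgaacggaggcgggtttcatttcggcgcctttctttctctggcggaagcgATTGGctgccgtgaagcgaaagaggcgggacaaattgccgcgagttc
LSM10, chr1:36397909-36398058, minus strand: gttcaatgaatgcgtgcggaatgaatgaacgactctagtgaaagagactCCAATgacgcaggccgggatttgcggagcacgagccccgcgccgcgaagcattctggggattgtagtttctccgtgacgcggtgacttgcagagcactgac
LSM11, chr5:157743562-157743711, plus strand: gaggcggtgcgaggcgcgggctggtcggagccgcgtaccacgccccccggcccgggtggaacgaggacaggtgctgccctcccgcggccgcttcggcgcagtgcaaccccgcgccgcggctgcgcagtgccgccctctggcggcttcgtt
CASP8AP2, chr6:89829730-89829879, plus strand: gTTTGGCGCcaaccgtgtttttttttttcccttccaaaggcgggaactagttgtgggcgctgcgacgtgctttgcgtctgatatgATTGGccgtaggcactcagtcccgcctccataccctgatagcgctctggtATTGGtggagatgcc
CCAAT occurred 1 time each in the NPAT and LSM10 stretches, 2 times in that of CASP8AP2 and 0 times in that of LSM11. In the stretches of the same length before all 35116 annotated starts, 23.5% held CCAAT. One of the E2F-type words, TTTGGCGC, occurred in the CASP8AP2 stretch, 149 bases before the start, and none in the other 3. At least 1 of the 4 words was present in 1.80% of all stretches. The SLBP stretch, not printed here, held CCAAT and each of these words 0 times. CCAAT and these words did not overlap.

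Array-wide measures differed between the groups. The median of the 10729 tested genes was 7.40 ± 0.16 on Ota arrays and 7.97 ± 0.05 on control arrays at 24 h, and 7.68 ± 0.05 and 7.96 ± 0.02 at 72 h (log2, SD, n = 3 each). The poly-A spike-in probe sets averaged 9.83 ± 0.24 on Ota arrays and 7.98 ± 0.19 on control arrays at 24 h, and 8.91 ± 0.37 and 8.02 ± 0.03 at 72 h. The 18S probe sets averaged 8.67 ± 0.19 on Ota arrays and 7.09 ± 0.27 on control arrays at 24 h, and 8.74 ± 0.23 and 7.40 ± 0.27 at 72 h. The values that follow are as deposited unless a scaling is named. In bulk RNA, fewer cells of a type and less RNA per cell cannot be told apart. Of 12 epithelial and proximal tubule markers 6 passed the filter on low values (KRT8, KRT18, KRT19, EPCAM, CDH1 and PAX8), and GGT1, ANPEP, LRP2, CUBN, AQP1 and PAX2 did not. Of markers of other cell types, 0 of 6 endothelial, 0 of 4 leukocyte, 3 of 6 fibroblast, 2 of 3 podocyte and 1 of 4 distal or collecting duct markers with a probe set passed. Of the 6 epithelial markers 3 fell and 0 rose at each time. Of the others, AQP3 of the collecting duct rose at both times (1.09 and 2.02), as did LUM of fibroblasts (0.69 and 1.55). PTPRO of podocytes rose at 72 h (0.65) and COL1A1 of fibroblasts fell at 24 h (-1.94). The part of these array-wide and marker differences in the results was not tested.

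All 7 genes passed the filter, a log2 value over 4 on at least 3 arrays, through the probe set that stands for the gene below. Of the 15 probe sets, 10 passed. The 5 that did not, 1 each of NPAT and CASP8AP2 and 3 of LSM11, lay between 2.10 and 3.52 on every array. A gene is said to have risen or fallen where limma's Benjamini-Hochberg adjusted p over all 10729 genes was under 0.05. Fold changes are given on the log2 scale, ± SE.

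After 24 h of Ota, the mRNAs for the histone gene coactivator NPAT, for both proteins particular to the U7 ring and for ZNF473 were lower than in control cells, while those for SLBP, CASP8AP2 and ERI1 gave no call. The ZNF473 fall rests on 1 probe set, and a second one did not share it. By 72 h NPAT, LSM10 and LSM11 no longer passed the test against controls, and SLBP, ZNF473 and ERI1 lay above them. Thus 4 of 7 genes fell and 0 rose at 24 h, while 3 rose and 0 fell at 72 h. Over all tested genes 40.5% fell and 20.8% rose at 24 h, and 24.8% rose and 35.2% fell at 72 h. Calls in either direction were made for 57.1% of the 7 genes at 24 h against 61.3% of all genes, and for 42.9% against 60.1% at 72 h, shares near the background. The median log2 fold change of the 7 was -1.20 at 24 h and -0.02 at 72 h, beside -0.24 and -0.11 for all tested genes.

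**Figure D1:**
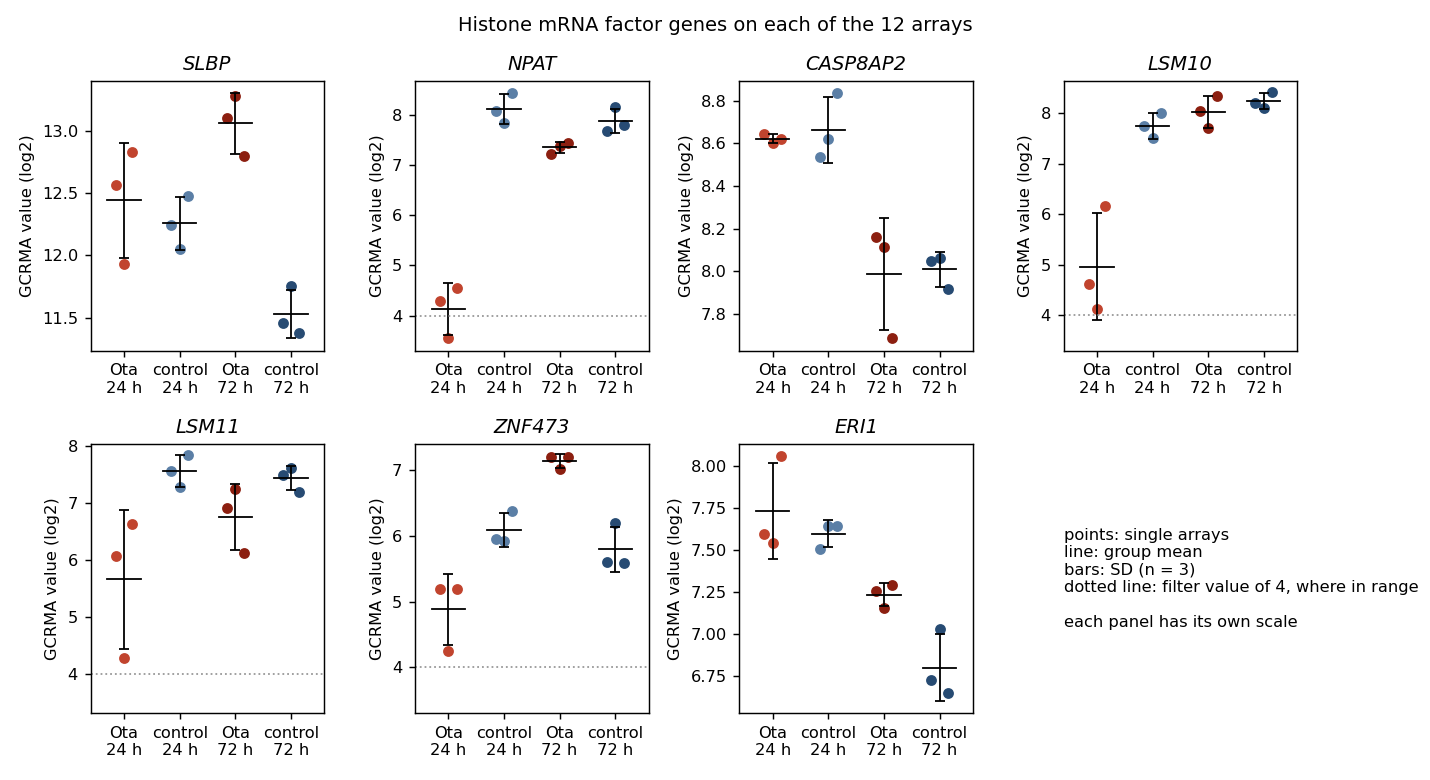
Log2 GCRMA values (vertical axes, a scale of its own in each panel) of the 7 genes on each array, with Ota and control groups side by side at 24 h and 72 h. Points are arrays, lines are means and bars are SD (n = 3). NPAT on the Ota arrays of 24 h lies between 3.55 and 4.55, below all other arrays. ZNF473, by the probe set shown, is lowest in Ota cells at 24 h and highest in Ota cells at 72 h.

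NPAT showed the largest change of the set. Its probe set read 4.28, 3.55 and 4.55 in Ota cells at 24 h, against 8.08, 7.85 and 8.43 in control cells. The groups were far apart, but the Ota values lay close to the filter value of 4, so the size of the fall is poorly measured. NPAT fell by 3.99 ± 0.25 on the log2 scale (limma adjusted p = 1.3e-07), and the effect was -2.43 with the mean over its probe sets. At 72 h it read 7.23, 7.39 and 7.45 in Ota cells and 7.68, 8.15 and 7.80 in control cells. All Ota arrays were still below all control arrays, but the difference of -0.52 ± 0.25 did not pass (95% interval -1.06 to 0.02, adjusted p = 0.087). It did pass (adjusted p = 0.023) without Ota replicate 2 of 24 h, which enters through the shared estimate of spread. The Ota effect was higher at 72 h than at 24 h by 3.47 ± 0.35 (limma interaction, adjusted p = 2.4e-05). A second, dimmer NPAT probe set had group means that moved the same way, with -0.87 ± 0.30 at 24 h (adjusted p = 0.024 over all 19407 probe sets that passed, of which 60.5% were called at 24 h and 58.8% at 72 h) and -0.41 ± 0.30 at 72 h (adjusted p = 0.26). On that probe set Ota and control arrays overlapped at 24 h and did not at 72 h.

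CASP8AP2, NPAT's neighbour in the histone nuclear bodies, did not follow it. At 24 h it read 8.65, 8.60 and 8.62 in Ota cells and 8.54, 8.62 and 8.84 in control cells, ranges that overlap. At 72 h it read 8.16, 8.11 and 7.68 in Ota cells and 8.05, 8.06 and 7.91 in control cells, which overlap too. The Ota effects were -0.04 at 24 h (95% interval -0.38 to 0.29) and -0.02 at 72 h (-0.36 to 0.31), so as deposited a change beyond those bounds lies outside the interval at each time. Centring put the 24 h effect at 0.52 and scaling to the spike-ins put it at -1.89, and both passed in opposite directions. At 72 h quantile normalization gave 0.046, centring 0.26 and the spike-in scaling -0.91, of which the last passed.

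The mRNAs for the U7 ring proteins LSM10 and LSM11 were lower together at 24 h. LSM10 read 4.62, 4.12 and 6.16 in Ota cells against 7.74, 7.50 and 8.01 in control cells. LSM11 read 6.06, 4.28 and 6.62 in Ota cells against 7.56, 7.28 and 7.84 in control cells. Neither gene's groups overlapped, but the Ota arrays varied widely, with replicate 3 of LSM10 and replicate 2 of LSM11 apart from the others. LSM10 fell by 2.78 ± 0.41 (limma adjusted p = 1.0e-04) and LSM11 fell by 1.91 ± 0.49 (adjusted p = 0.0049). Without Ota replicate 2 of 24 h the LSM11 effect was -1.22 (adjusted p = 0.0051).

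At 72 h both U7 ring genes overlapped with controls. LSM10 read 8.04, 7.70 and 8.33 in Ota cells and 8.20, 8.10 and 8.41 in control cells. LSM11 read 6.90, 7.24 and 6.12 in Ota cells and 7.49, 7.61 and 7.19 in control cells. The effects were -0.21 ± 0.41 for LSM10 (95% interval -1.10 to 0.68) and -0.68 ± 0.49 for LSM11 (-1.74 to 0.38), intervals wide enough to hold a sizeable fall, and centring put LSM10 at 0.07. LSM11 passed at 72 h without Ota replicate 2 of 24 h (adjusted p = 0.049). The Ota effect on LSM10 was higher at 72 h by 2.57 ± 0.57 (interaction, adjusted p = 0.0033), whereas that on LSM11 differed by 1.23 ± 0.69 (adjusted p = 0.16) and passed without Ota replicate 3 of 24 h (1.71, adjusted p = 0.034).

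ZNF473, which connects the stem-loop complex to U7, changed in opposite directions at the 2 times. It read 5.20, 4.25 and 5.19 in Ota cells at 24 h, against 5.95, 5.92 and 6.38 in control cells. At 72 h it read 7.20, 7.01 and 7.19 in Ota cells, against 5.60, 6.19 and 5.59 in control cells. All Ota arrays were below all control arrays at 24 h and above them all at 72 h. The gene fell by 1.20 ± 0.26 at 24 h (limma adjusted p = 0.0018) and rose by 1.34 ± 0.26 at 72 h (adjusted p = 8.6e-04), and the effects differed by 2.54 ± 0.37 (interaction, adjusted p = 2.3e-04). A second ZNF473 probe set disagreed at 24 h. It read 5.48, 6.04 and 6.08 in Ota cells and 5.17, 5.35 and 5.60 in control cells (0.49 ± 0.22, adjusted p = 0.071). At 72 h it shared the rise, at 1.01 ± 0.22 (adjusted p = 0.0019), with 6.40, 6.29 and 6.75 in Ota cells and 5.54, 5.14 and 5.74 in control cells. Quantile normalization gave -0.79 at 24 h and centring -0.64, and both passed. With the mean over both probe sets the 24 h effect was -0.35 (adjusted p = 0.081), so the fall at 24 h rests on 1 probe set, and the rise at 72 h does not. With the spike-in scaling the 72 h effect was 0.45 (adjusted p = 0.26).

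SLBP, the stem-loop binding protein, had the largest change of the set at 72 h. At 24 h it read 12.56, 11.93 and 12.83 in Ota cells and 12.25, 12.05 and 12.47 in control cells, with overlap (0.18 ± 0.23, 95% interval -0.32 to 0.69, adjusted p = 0.51). At 72 h it read 13.10, 13.28 and 12.80 in Ota cells, against 11.46, 11.75 and 11.38 in control cells. The Ota arrays of 72 h lay above all control arrays, and above the Ota arrays of 24 h except replicate 3. SLBP rose by 1.53 ± 0.23 at 72 h (limma adjusted p = 1.2e-04), more than at 24 h by 1.35 ± 0.33 (interaction, adjusted p = 0.0053). With the spike-in scaling the 72 h effect was 0.64 (adjusted p = 0.075) and the 24 h effect was -1.67 (adjusted p = 7.2e-05). SLBP has a single probe set here, of the kind whose suffix marks probes shared by several transcripts, so no other probe set bears on it.

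ERI1, the exonuclease that acts on the same stem-loop, had a small effect that passed only at 72 h. It read 7.59, 7.54 and 8.06 in Ota cells and 7.50, 7.64 and 7.64 in control cells at 24 h, which overlap (0.13 ± 0.16, adjusted p = 0.50). The 24 h effect was -1.72 with the spike-in scaling and 0.46 with quantile normalization, and both passed. At 72 h it read 7.25, 7.15 and 7.29 in Ota cells, against 6.72, 7.02 and 6.65 in control cells. Those groups did not overlap, and ERI1 rose by 0.43 ± 0.16 (limma adjusted p = 0.038). The call ended without control replicate 1 of 24 h, any 1 of the Ota arrays of 72 h, or control replicate 1 or 3 of 72 h, with adjusted p up to 0.13. The call also ended with a replicate block within each time. With the spike-in scaling the 72 h effect was -0.45 (adjusted p = 0.19), and the second ERI1 probe set gave 0.27 ± 0.19 (adjusted p = 0.23). The change between times was not called (0.30 ± 0.23, adjusted p = 0.31).

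**Figure D2:**
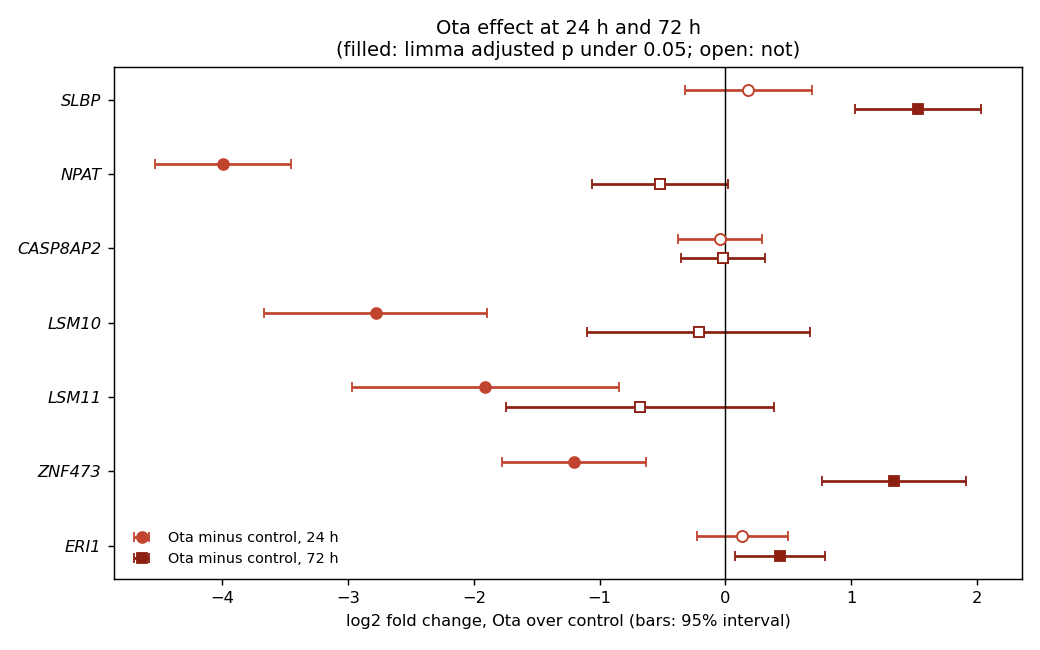
Log2 fold change of Ota over control (horizontal axis, with 95% intervals) for each gene at 24 h (circles) and 72 h (squares); filled symbols passed limma's adjusted p of 0.05. NPAT, LSM10, LSM11 and ZNF473 lie left of 0 at 24 h, and SLBP, ZNF473 and ERI1 lie right of 0 at 72 h. Each gene is shown by the probe set that stands for it, and the second ZNF473 probe set, not shown, was above 0 at 24 h.

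The groups of arrays did not overlap for 4 of the 7 genes at each time. They were NPAT, LSM10, LSM11 and ZNF473 at 24 h, and SLBP, NPAT, ZNF473 and ERI1 at 72 h. Over all tested genes the share was 65.7% at 24 h and 73.7% at 72 h, so this count is no more than the background. The change of the Ota effect between times was called for 4 of 7 genes, all upwards (SLBP, NPAT, LSM10 and ZNF473), where 29.6% of all tested genes were called upwards, 19.9% downwards and 49.5% in either direction.

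Within control cells, SLBP, CASP8AP2 and ERI1 were lower at 72 h than at 24 h. Of the 7 genes 3 fell and 0 rose at 72 h relative to 24 h, beside 13.3% and 12.2% of all tested genes, and 25.5% in either direction. The groups did not overlap for 4 genes (these 3 and LSM10), beside 53.5% of all tested genes. ERI1 averaged 6.80 ± 0.20 at 72 h and 7.60 ± 0.08 at 24 h in control cells (SD, n = 3 each; -0.80 ± 0.16, limma adjusted p = 0.0042). CASP8AP2 averaged 8.01 ± 0.08 at 72 h and 8.66 ± 0.15 at 24 h (-0.66 ± 0.15, adjusted p = 0.0085). SLBP averaged 11.53 ± 0.20 at 72 h and 12.26 ± 0.21 at 24 h (-0.73 ± 0.23, adjusted p = 0.037). The second ERI1 probe set gave -0.19 ± 0.19 (adjusted p = 0.52). With the spike-in scaling none of the 3 passed, at -0.83 for ERI1, -0.69 for CASP8AP2 and -0.76 for SLBP (adjusted p of 0.086, 0.092 and 0.13). The SLBP call ended without control replicate 1 or 3 of either time, or Ota replicate 1 of 72 h (adjusted p up to 0.12). NPAT (-0.24 ± 0.25), LSM10 (0.49 ± 0.41), LSM11 (-0.13 ± 0.49) and ZNF473 (-0.29 ± 0.26) were not called between these times.

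Within Ota cells, 6 of the 7 genes differed between 72 h and 24 h, 4 of them higher and 2 lower, beside 37.0% and 23.3% of all tested genes, and 60.3% in either direction. The groups did not overlap for 5 genes, all of these but SLBP, beside 62.1% of all tested genes. NPAT was higher at 72 h by 3.23 ± 0.25 (limma adjusted p = 1.4e-06), LSM10 by 3.06 ± 0.41 (adjusted p = 6.3e-05), ZNF473 by 2.25 ± 0.26 (adjusted p = 2.4e-05) and SLBP by 0.62 ± 0.23 (adjusted p = 0.035). CASP8AP2 (-0.64 ± 0.15, adjusted p = 0.0037) and ERI1 (-0.50 ± 0.16, adjusted p = 0.021) were lower, and both turned to the other sign with the spike-in scaling, at 0.29 and 0.43. The SLBP call ended with centring (0.34) and without Ota replicate 1 or 2 of either time (adjusted p up to 0.13, and 0.36 in size without replicate 2 of 24 h), and that of ERI1 without Ota replicate 3 of 24 h or 2 of 72 h (up to 0.073), and it was -0.10 with the mean over probe sets. The second ERI1 probe set was higher at 72 h by value, at 0.30 ± 0.19 (adjusted p = 0.19). LSM11 was not called (1.10 ± 0.49, adjusted p = 0.069), but passed without Ota replicate 3 of 24 h (1.58) or of 72 h (1.42).

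The 4 groups ran in a different order for different genes. SLBP was highest in Ota cells at 72 h, followed by Ota at 24 h and control at 24 h, which overlapped, and control cells at 72 h were lowest, apart from all. NPAT was lowest in Ota cells at 24 h, then in Ota cells at 72 h, and the control groups overlapped above them. LSM10 and LSM11 were lowest in Ota cells at 24 h. Above it, for LSM10, Ota at 72 h overlapped with both control groups. For LSM11, Ota at 72 h overlapped with Ota at 24 h and with control at 72 h. By the probe set that stands for it, ZNF473 was lowest in Ota cells at 24 h and highest in Ota cells at 72 h. The control groups overlapped in between. Its second probe set averaged 5.87 in Ota cells at 24 h, above the control means of 5.37 at 24 h and 5.47 at 72 h. CASP8AP2 and ERI1, each by the probe set that stands for it, were higher at 24 h than at 72 h in Ota and in control cells.

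Over the 12 arrays NPAT and LSM10 correlated at r = 0.94, NPAT and LSM11 at 0.84 and LSM10 and LSM11 at 0.79, while SLBP correlated with none of these beyond -0.16. These are descriptions over arrays that fall into 4 groups and share the array-wide differences above. By the same measure over all tested genes, the closest to NPAT were RABIF (r = 0.99, Spearman's rho = 0.91) and PHF6 (0.99 and 0.92). RABIF averaged 4.95 in Ota and 8.56 in control cells at 24 h and 7.75 and 8.14 at 72 h. The closest to LSM10 were ASAH2B (0.99 and 0.90) and TMEM70 (0.99 and 0.78), and to LSM11 PXYLP1 (0.98 and 0.97) and EXOC6 (0.98 and 0.94). MGME1 (0.98 and 0.99) and TIMM21 (0.98 and 0.97), which act in mitochondria, were closest to SLBP. MGME1 averaged 10.99 in Ota and 10.64 in control cells at 24 h and 11.33 and 9.90 at 72 h. TMEM135 (0.97 and 0.97) and TRMT10C (0.97 and 0.97) were closest to ZNF473, CAPN2 (0.93 and 0.87) and C8orf88 (0.93 and 0.85) to CASP8AP2, and AURKA, a mitotic kinase gene (0.97 and 0.96), and HMGN3 (0.96 and 0.92) to ERI1.

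Among genes that act with NPAT, more fell than rose at 24 h, as over all tested genes, and more rose than fell at 72 h. The counts of this list and of each list below stand beside the shares of all tested genes. Those were 40.5% fallen and 20.8% risen at 24 h, and 24.8% risen and 35.2% fallen at 72 h. Of 11 listed partners and cyclin E kinase genes 10 were measured, with 6 fallen and 2 risen at 24 h and 5 risen and 3 fallen at 72 h. CDK2, the kinase that phosphorylates NPAT, averaged 5.44 ± 0.25 in Ota and 8.67 ± 0.10 in control cells at 24 h (-3.24 ± 0.28). CCNE1, which encodes a cyclin E, fell at 24 h (-2.03 ± 0.24) and rose at 72 h (2.31 ± 0.24), and CCNE2 rose at 72 h (2.51 ± 0.17). CDC25A, the phosphatase that activates CDK2, rose at both times (0.67 ± 0.25 and 3.44 ± 0.25), and the effects differed by 2.77 ± 0.35 (interaction, adjusted p = 9.2e-05). TRRAP, a histone acetyltransferase scaffold, fell at both times, and averaged 2.97 in Ota and 7.50 in control cells at 24 h and 4.70 and 7.17 at 72 h. A group mean under 4, as for TRRAP in Ota cells at 24 h, lies among values of probe sets that failed the filter, so no fold is given against one. CRAMP1, an H1 gene regulator, rose at both times (0.74 ± 0.16 and 1.01 ± 0.16). The list's medians were -0.88 and 0.63.

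Of the 4 genes for proteins of the histone cleavage complex, 3 fell and 0 rose at 24 h, and 2 rose and 0 fell at 72 h. CSTF2, a subunit that histone and polyadenylated pre-mRNAs share, fell at 24 h (-1.86 ± 0.34) and rose at 72 h (0.86 ± 0.34, limma adjusted p = 0.049). CPSF2 fell at 24 h (-1.39 ± 0.29), CPSF3, the endonuclease, fell slightly (-0.39 ± 0.16, adjusted p = 0.047), and the scaffold SYMPK rose at 72 h (0.72 ± 0.19). Of 14 further cleavage and polyadenylation genes 12 were measured, with 4 risen and 6 fallen at 24 h and 6 risen and 2 fallen at 72 h. CPSF4 fell at both times (-3.02 ± 0.26 and -1.77 ± 0.26) and PCF11 rose at both (2.37 ± 0.23 and 2.60 ± 0.23). CSTF2T fell at 24 h (-2.58 ± 0.55). CSTF3 rose at 72 h (1.84 ± 0.16), and CLP1 rose at both times (1.29 ± 0.19 and 1.82 ± 0.19). The medians of these 12 genes were -0.22 and 0.73.

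All 11 measured of 12 listed assembly genes fell at 24 h, where 40.5% of all genes did, with a median of -1.87. At 72 h 7 fell and 0 rose, with a median of -0.93. They include subunits of the SMN complex, which loads Sm proteins on snRNAs: GEMIN6 (-3.68 ± 0.34 at 24 h), GEMIN4 (-3.32 ± 0.24 at 24 h) and GEMIN8 (-1.56 ± 0.48 at 72 h). GEMIN7 averaged 2.36 in Ota and 7.25 in control cells at 24 h, and fell by 2.76 ± 0.18 at 72 h. CLNS1A, a chaperone of Sm proteins, fell by 1.43 ± 0.21 at 72 h. Of the 5 genes for Sm proteins that U7 and spliceosomal rings share, SNRPD3 alone fell (-0.94 ± 0.17) and 0 rose at 24 h. At 72 h SNRPF (0.97 ± 0.15), SNRPB (0.74 ± 0.16) and SNRPG (0.51) rose and SNRPE fell (-0.82 ± 0.12). SNRPD1 and SNRPD2 encode SmD1 and SmD2, the counterparts that LSM10 and LSM11 replace. SNRPD1 averaged 8.80 ± 0.24 in Ota and 11.65 ± 0.19 in control cells at 24 h (-2.85 ± 0.18) and rose at 72 h (0.66 ± 0.18). SNRPD2 rose slightly at 24 h (0.31 ± 0.13, adjusted p = 0.047).

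**Figure D3:**
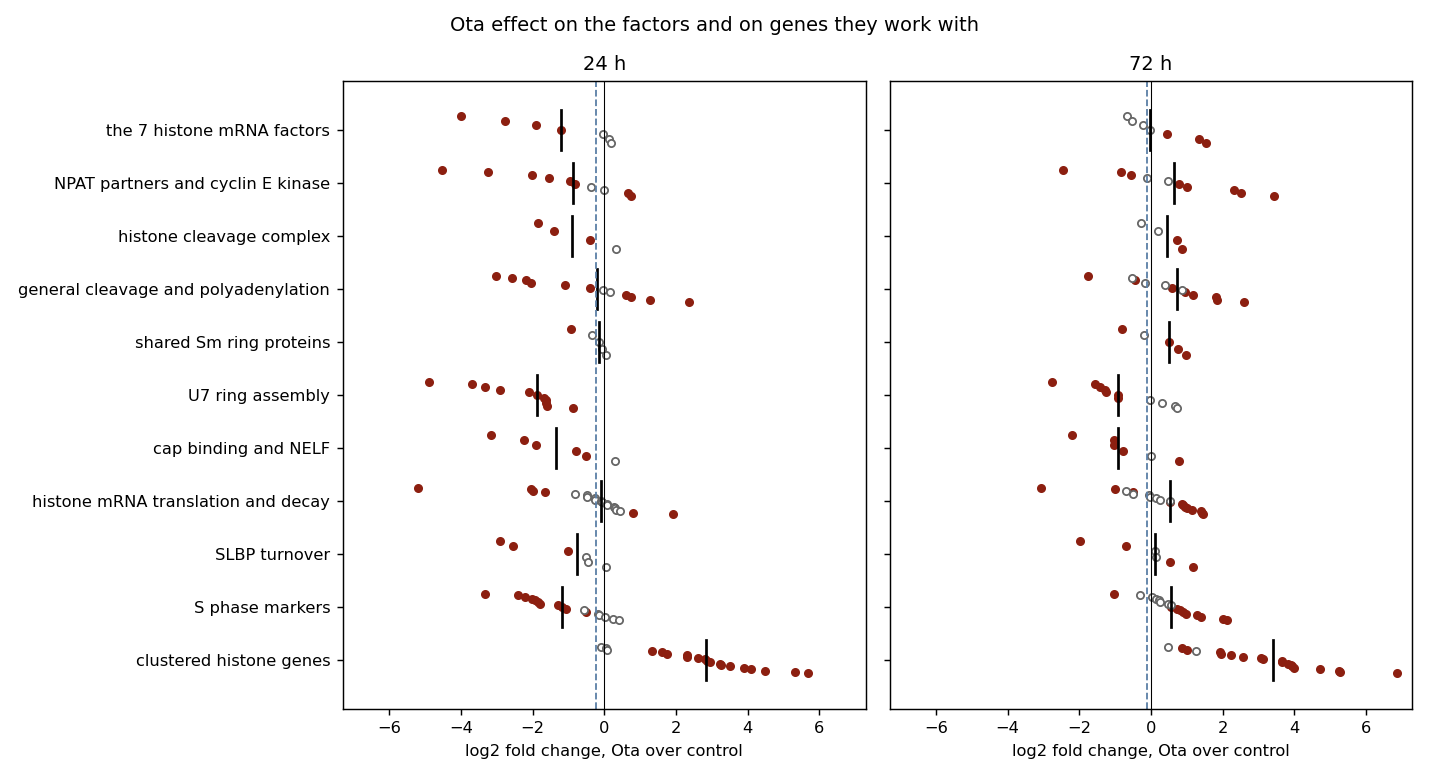
Log2 fold change of Ota over control (horizontal axis) at 24 h and 72 h for the 7 genes and for 10 lists of genes that act with them; each point is a gene, filled where limma's adjusted p was under 0.05. Black bars are list medians and the dashed line is the median of all tested genes. Of the 20 clustered histone genes 11 passed the filter only through Ota arrays. A fall could not have been seen in those 11, so the bar of that list is no measure of its direction. All 11 U7 ring assembly genes lie left of 0 at 24 h, and points whose Ota or control mean was under 4, such as most clustered histone genes, have no well-measured size.

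Of 6 measured cap binding and NELF genes 5 fell and 0 rose at 24 h, and 1 rose and 4 fell at 72 h. The nuclear cap-binding genes NCBP1 (-3.16 ± 0.38) and NCBP2 (-1.90 ± 0.16) and the pausing factor NELFB (-2.24 ± 0.13) fell at 24 h. NCBP2 (-2.20 ± 0.16) and NCBP1 (-1.03 ± 0.38) fell at 72 h, and SRRT, a partner of the cap-binding complex, rose (0.78 ± 0.15). CDK9 was also called at 72 h, but its means in all 4 groups were under 4. Of 19 measured genes of histone mRNA translation and decay 2 rose and 4 fell at 24 h, and 9 rose and 3 fell at 72 h. TUT7, a terminal uridylyltransferase, rose at both times (1.92 ± 0.17 and 1.45 ± 0.17). LSM6, of the ring that promotes decapping, averaged 3.84 ± 1.08 in Ota and 9.05 ± 0.13 in control cells at 24 h. UPF1 (-2.06 ± 0.22) and LSM2 (-1.98 ± 0.21) fell at 24 h. MIF4GD, also called SLIP1, which joins SLBP to translation, fell at 72 h (-3.06 ± 0.29), and the exosome nuclease gene DIS3 rose (1.43 ± 0.21).

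Of 6 measured genes linked to SLBP turnover 3 fell and 0 rose at 24 h, and 2 rose and 2 fell at 72 h. CUL4A (-2.92 ± 0.23), CSNK2A1 (-2.54 ± 0.22) and CCNF, a cyclin that targets proteins for degradation (-1.02 ± 0.17), fell at 24 h, when SLBP was not called. At 72 h DCAF11 (-1.99 ± 0.23) and CUL4A (-0.69 ± 0.23) fell and the mitotic kinase gene CDK1 rose (1.16 ± 0.20). Markers of S phase, in which histone mRNA is made, were looked up as well. Of 17 measured markers 11 fell and 0 rose at 24 h, and 9 rose and 1 fell at 72 h. Their Ota effect was higher at 72 h than at 24 h for 16 of the 17 (interaction), beside 29.6% of all tested genes. In control cells 15 were lower at 72 h than at 24 h, beside 13.3% of all tested genes. CDC6 (-2.40 ± 0.41) and MCM5 (-2.21 ± 0.19) fell at 24 h, and GINS4 averaged 3.15 in Ota and 6.48 in control cells. GINS3 (2.11 ± 0.23), CDC45 (2.01 ± 0.18) and GINS1 (1.38 ± 0.18) rose at 72 h and GINS2 fell (-1.03 ± 0.23). Their part in the changes of SLBP, NPAT and ZNF473 was not tested.

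The clustered histone genes are those whose mRNAs these factors make. Of 42 such genes with a probe set 20 passed the filter, and 11 of the 20 had 0 of 6 control arrays over 4, so they passed only through the Ota arrays. A fall could not have been seen in those 11, and no count over the list is given. H2BC4, one of them, averaged 8.88 ± 0.25 in Ota and 3.20 ± 0.18 in control cells at 24 h, and H3C3, another, averaged 7.25 and 2.75. Among genes with 3 or more control arrays over 4, H2AC6 rose at 24 h (5.33 ± 0.32) and H2BC9 rose at 72 h (5.27 ± 0.20). H2AC6 averaged 9.80 ± 0.33 in Ota and 4.47 ± 0.82 in control cells at 24 h. H2BC9 averaged 9.59 ± 0.05 in Ota and 4.32 ± 0.22 in control cells at 72 h. Both control means lie near the filter value of 4, so the sizes are poorly measured. H2AC25, over 4 on all 6 control arrays, was not called at 24 h (0.08 ± 0.24, adjusted p = 0.79) or 72 h (0.47 ± 0.24, adjusted p = 0.11). H2BC12, also over 4 on all 6, averaged 12.63 ± 0.30 in Ota and 9.37 ± 0.25 in control cells at 24 h, and rose at both times (3.27 ± 0.17 and 3.82 ± 0.17). How well these arrays measure mRNAs without a poly(A) tail was not tested. H1-2 averaged 8.84 in Ota and 3.59 in control cells at 72 h. Near-identical histone genes can share probes.

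The directions of the 7 effects depended on scaling to different degrees. At 24 h NPAT, LSM10, LSM11 and ZNF473 were below 0 and passed as deposited, with quantile normalization, with centring and with the spike-in scaling. For ZNF473 this holds for the probe set that stands for it, and its second one was above 0 as deposited. The median of all tested genes moved by 0.56 with centring and by -1.85 with the spike-ins at 24 h, and by 0.28 and -0.89 at 72 h. With centring SLBP (0.74), CASP8AP2 (0.52) and ERI1 (0.70) passed as rises at 24 h, as did 4659 of the 10729 tested genes. With the spike-ins all 7 genes passed as falls at 24 h, from -1.67 for SLBP to -5.84 for NPAT. That scaling called 10035 of the 10729 tested genes as falls at 24 h, so 7 of 7 is near the background. At 72 h SLBP and ZNF473 stayed above 0 under these 4 scalings, and ERI1 did not.

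**Figure D4:**
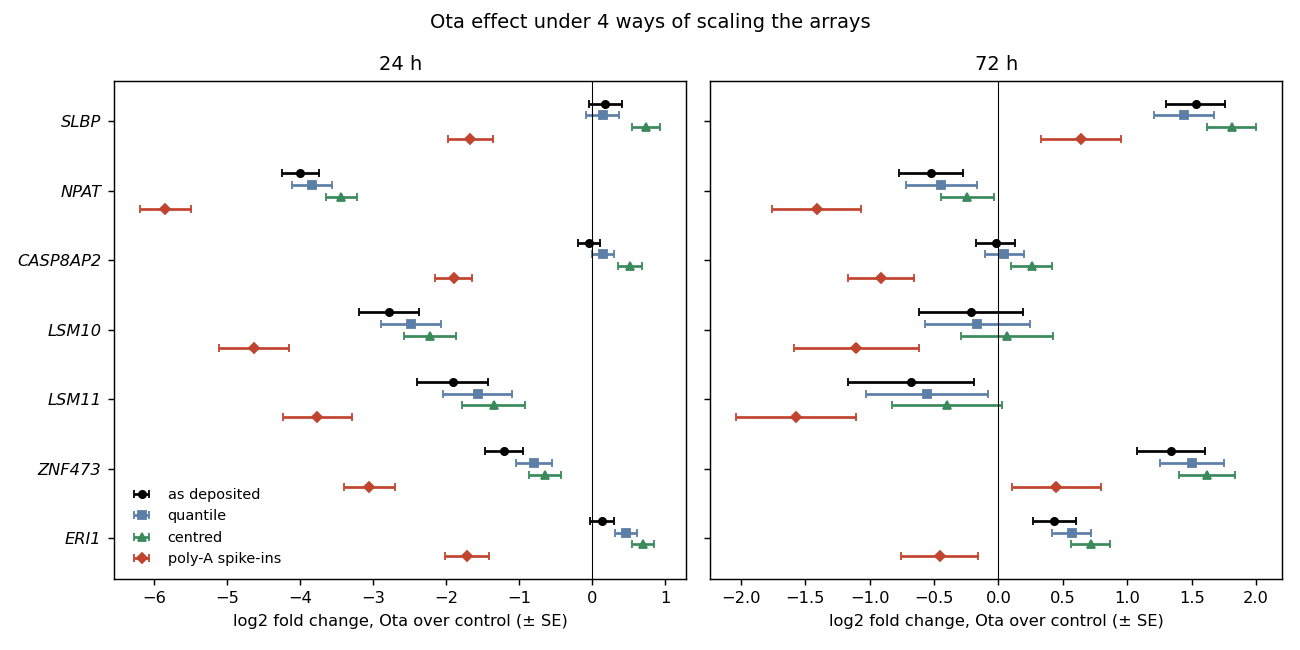
Log2 fold change of Ota over control (horizontal axis, ± SE) for each gene at 24 h and 72 h under 4 ways of scaling the arrays. The spike-in scaling shifts every gene to the left, by -1.85 at 24 h and -0.89 at 72 h for the median of all tested genes. NPAT, LSM10, LSM11 and ZNF473, each by the probe set that stands for it, are left of 0 at 24 h under each scaling.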

How the data were processed

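The series holds 12 Affymetrix arrays of total RNA. The deposited values are log2 expression values per probe set that the authors made with GCRMA, named without a version in the submitters' processing notes; the arrays normalized together and the genome build are not given in the sources used here. The log2 values were used as deposited. Of 54675 probe sets 41097 had 1 gene symbol in the platform annotation. Genes entered with a value over 4 on at least 3 arrays and the probe set with the highest mean, which left 10729. The 4 group means were estimated in limma (version 3.58.1, R 4.3.3), with 8 residual and 3.56 prior degrees of freedom, two-sided tests and Benjamini-Hochberg adjustment over all genes. A second fit took all 19407 probe sets over the filter. On simulated data for the 24 h comparison, 200 of 10729 genes were changed. Log2 changes of 0.5, 1, 2 and 4 were recovered for 16%, 58%, 94% and 100% of 50 genes each. Of the calls, 4.96% were unchanged genes. In the data 61.3% of genes were called at 24 h, a far larger share, so these rates need not hold there. At 24 h, deviations of Ota and control arrays of equal replicate number correlated at 0.12, 0.23 and 0.27. The replicate numbers were therefore taken to pair the 24 h arrays. At 72 h the values were -0.05, 0.14 and 0.19, and the numbers were not taken so. The fit behind the results holds no term for such pairs at either time. A replicate block, given in the last section, changed no call of an Ota effect at 24 h. The number of arrays limits precision: the median SE of an Ota effect was 0.21. Named beside the 7 genes were, from each list, up to 3 genes with the largest called change per Ota comparison and the largest in the other direction (for clustered histones, markers and a few others only some are given), and the 2 genes most correlated with each member. SNRPG was named to complete a count after its value was seen. H2AC25 and H2BC12 were also named after their values were seen, as genes over 4 on all control arrays. The members, lists and alternatives were chosen with earlier results of these data known.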

Additional observations from a re-analysis of the deposited data

Results flagged for a closer look

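For 4 of the 7 genes the Ota effect differed between 72 h and 24 h by limma's interaction term. The difference (72 h minus 24 h, log2) was 3.47 for NPAT (adjusted p = 2.4e-05), 2.57 for LSM10 (adjusted p = 0.0033), 2.54 for ZNF473 (adjusted p = 2.3e-04) and 1.35 for SLBP (adjusted p = 0.0053). Each was above 0 in every alternative that gave a value, and 49.5% of all tested genes had a called difference in either direction. With the mean over probe sets it was 1.97 for NPAT and 1.53 for ZNF473, and with the spike-in scaling 2.31 for SLBP. The second probe set gave 0.47 ± 0.42 for NPAT (adjusted p = 0.39) and 0.52 ± 0.31 for ZNF473 (adjusted p = 0.19), and neither was called.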

How the results depend on the processing

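Under 15 alternatives the 35 effects of the 7 genes kept direction and side of the threshold 430 times, passed newly 21 times, no longer passed 28 times and turned 15 times; with each of 12 arrays left out the numbers were 388, 5, 17 and 10. The count of genes risen at 24 h (0) became 1 with quantile normalization, 3 with centring and 1 with array weights, whose estimation stopped before it converged. Of the 10729 tested genes, 3044 rose at 24 h with quantile normalization and 4659 with centring. With the spike-in scaling 7 of the 7 genes fell at 24 h, 0 rose and 3 fell at 72 h, 7 had a called change of effect and 0 a called change in control cells. Of the 10729 tested genes, that scaling called 10035 as falls at 24 h. At 72 h it called 555 as rises and 6718 as falls. Its called changes of effect were 5908 upwards and 524 downwards, and those in control cells 576 and 704. Genes fallen at 72 h (0) became 2 with array weights, and 1 (NPAT) with the 6 arrays of the comparison alone or with the replicate block within each time. At a log2 fold change of at least 1, 0 genes were called in control cells over time and 3 in Ota cells; without the _s_at and _x_at probe sets 1 was called in control cells, and SLBP and CASP8AP2 had no value. Leaving out an array gave 2 to 3 genes risen and 0 to 2 fallen at 72 h, 4 to 5 called changes of effect, 2 to 3 calls in control and 4 to 7 in Ota cells over time; at 24 h the counts stayed at 0 and 4. The directions that turned with the spike-in scaling were SLBP (-1.67) and ERI1 (-1.72) at 24 h, ERI1 at 72 h (-0.45), and CASP8AP2 (0.29) and ERI1 (0.43) over time in Ota cells. CASP8AP2 was at 0.15, 0.52 and 0.045 at 24 h and at 0.046, 0.26 and 0.10 at 72 h with quantile normalization, centring and array weights, and its change of effect at -0.10 and -0.26 with the first 2. LSM10 at 72 h was 0.068 with centring, and ERI1 at 24 h -0.041 with the mean over probe sets. Leaving out an array turned SLBP (-0.012 to 0.44) and ERI1 (-0.029 to 0.23) at 24 h, CASP8AP2 at 24 h (-0.10 to 0.045) and 72 h (-0.11 to 0.13) and its change of effect (-0.069 to 0.17), and LSM11 in control cells (-0.27 to 0.0090). The replicate block within each time called NPAT at 72 h (-0.52, adjusted p = 0.022) and lost ERI1 (adjusted p = 0.052); the block over all 12 arrays lost SLBP over time in control (adjusted p = 0.055) and Ota cells (0.052). The blocks changed no other call. The causes were not tested.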
